A study of Mus musculus with 4 samples.

Results

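The strongest binding sites of an Isl1-Lhx3 fusion protein were taken from 1 deposited list of ChIP-seq peaks in mouse embryonic stem cells. Peaks were selected on the authors' own scores: a ChIP score of at least 75, with a background score that stayed under 10% of it. The rule was met by 257 of 2454 peaks, which is 10.5% of the list, and these 257 are called the strongest peaks here. The other 2197 peaks of the list served for comparison. The ChIP score and background score are deposited values with no stated scale, and the score alone made the strongest peaks strong, so their scores are a description and were not tested.

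The cells were iMN-ESCs, made from the A172LoxP embryonic stem cell line by inserting a gene for the FLAG-tagged fusion into the Tet-inducible plasmid p2Lox. Doxycycline (Dox) switches this transgene on, so the bound protein is an induced fusion and not Isl1 and Lhx3 at their own levels. Of the 4 libraries, 2 came from cells with Dox and 2 from cells without, in 2 sets, and all were precipitated with an anti-Flag antibody. In both groups embryoid bodies first received retinoic acid (RA) at 0.5 µM for 2 days. They were then kept in RA for 4 more days, with Dox at 2 µg/mL or without it, and LIF was added to both groups for 16 h before harvest. The labels do not say whether the line was 1 clone or whether the sets were separate cultures. The list has no value per library, so the groups with and without Dox could not be compared, library depths are unknown, and how far the sets differ was not measured. Every p-value below compares peaks of this 1 list with each other.

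Both Isl1 and Lhx3 belong to the LIM-homeodomain transcription factors and act together in a complex specifying spinal motor neurons. Homeodomains read short AT-rich DNA, with the core letters ATTA on one strand, which is TAAT on the other. The full palindrome TAATTA is a site commonly bound by LIM-homeodomain factors, and paired cores can hold more than 1 homeodomain.

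To show what sequence lay under these maxima, the maximum and 50 bp on each side of it follow for 10 of the strongest peaks, 5′ to 3′ on the plus strand of mm9. ATTA and TAAT are in capitals. The first 4 and Lats2 stand among the 10 highest scores. Lhx3, Lifr, Mnx1 and Chat are the nearest protein-coding genes with known roles in this system. Glrx2 marks a strongest peak with no core in the 200 bp around its maximum.
Gm10132, in an intron of Enox1, chr14:77650519-77650619: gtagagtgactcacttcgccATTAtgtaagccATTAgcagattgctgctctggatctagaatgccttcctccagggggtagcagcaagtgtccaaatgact
Wwp2 intron, chr8:110043820-110043920: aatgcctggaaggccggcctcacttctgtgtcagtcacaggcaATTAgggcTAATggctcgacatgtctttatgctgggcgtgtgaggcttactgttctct
Ankrd55 intron, chr13:113166168-113166268: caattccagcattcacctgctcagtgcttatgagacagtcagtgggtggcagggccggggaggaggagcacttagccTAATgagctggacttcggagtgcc
Accn2 intron, chr15:99509140-99509240: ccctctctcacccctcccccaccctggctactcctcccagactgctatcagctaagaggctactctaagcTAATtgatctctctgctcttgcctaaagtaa
Lats2 intron, chr14:58351687-58351787: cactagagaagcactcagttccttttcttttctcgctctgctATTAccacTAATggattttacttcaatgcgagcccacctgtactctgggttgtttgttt
Lhx3, intergenic, chr2:26050264-26050364: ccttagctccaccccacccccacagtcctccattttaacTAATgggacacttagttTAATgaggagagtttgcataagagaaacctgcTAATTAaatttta
Lifr, intergenic, chr15:7065755-7065855: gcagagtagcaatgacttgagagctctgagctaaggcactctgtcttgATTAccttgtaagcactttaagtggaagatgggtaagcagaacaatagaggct
Mnx1, intergenic, chr5:29811762-29811862: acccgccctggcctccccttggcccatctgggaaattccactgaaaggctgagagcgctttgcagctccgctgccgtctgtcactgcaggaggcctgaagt
Chat intron, chr14:33256817-33256917: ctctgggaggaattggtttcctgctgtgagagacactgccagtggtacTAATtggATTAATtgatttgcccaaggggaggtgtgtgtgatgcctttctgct
Glrx2, intergenic, chr1:145578978-145579078: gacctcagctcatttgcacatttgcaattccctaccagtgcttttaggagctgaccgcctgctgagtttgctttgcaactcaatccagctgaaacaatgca
The Lhx3 window held 4 cores, some of them overlapping in a TAATTA, and the Chat window held 3. The Wwp2 and Lats2 windows each held an ATTA facing a TAAT close to the maximum. The windows at Ankrd55, Accn2 and Lifr held a single core each, and those at Mnx1 and Glrx2 held none. In the wider 200 bp the Mnx1 peak held 5 cores, the nearest 63.5 bp from its maximum.

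ChIP scores of the strongest peaks spanned 75.21 to 321.18. Their median was 96.62, and their quartiles were 84.31 and 121.2. Most lay near the lower end, and the first 5 stood apart above 250. The highest score, 321.18, belonged to the peak in an intron of Enox1, whose nearest protein-coding start was that of Gm10132 at 1.57 kb. It had 390 ChIP tags, with an exact Poisson interval of 352.2 to 430.7. The second, 266.04 with 257 tags, lay in an exon of Kctd9, 2.94 kb upstream of Gnrh1, which encodes gonadotropin-releasing hormone. An intronic peak of Wwp2, a ubiquitin ligase gene, came next at 263.37 with 176 tags. Ankrd55 (254.27, 160 tags) and Accn2, which encodes an acid-sensing ion channel (251.59, 193 tags), followed, both in introns. The plot of ChIP score by rank shows a steep fall over these peaks and a smooth passage through the threshold.

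**Figure D1:**
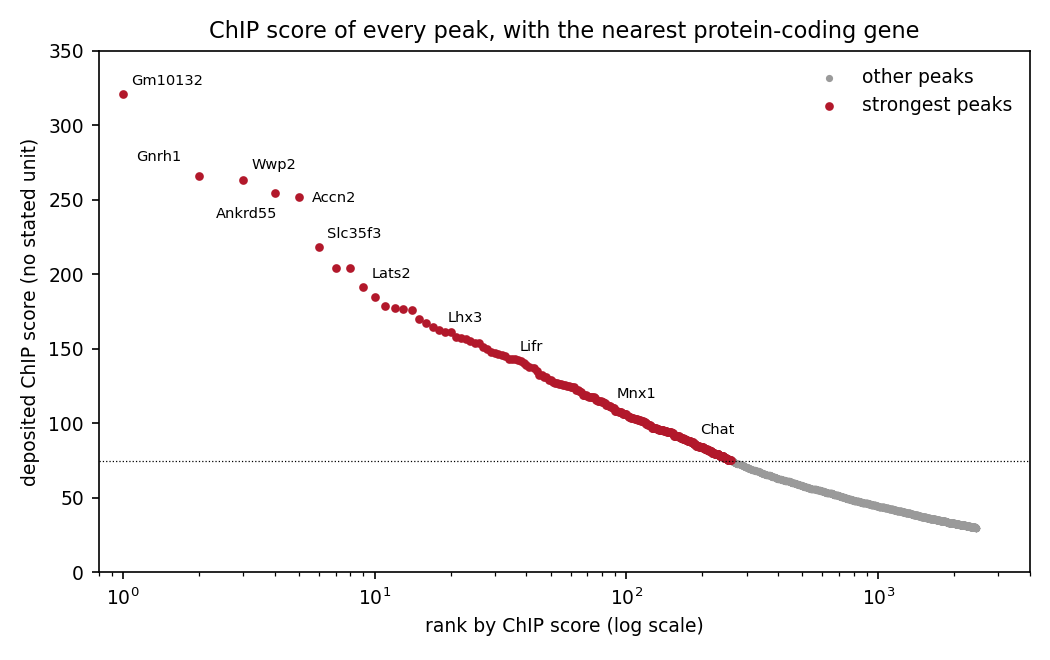
ChIP score (deposited value, no stated unit) of each of the 2454 peaks against its rank on a log scale, with the 257 strongest peaks in red and other peaks in grey, and the nearest protein-coding gene written beside some of them. The dotted line is the score threshold of 75, and scores pass through it with no gap, from 75.21 inside to 74.94 outside.

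Around the threshold there was no break. The last 3 peaks inside were near Htr4 (75.48), Greb1l (75.48) and Ror2 (75.21), and the first 3 outside, near Lmln, Zfp3 and Anxa10, all scored 74.94. Of the 259 peaks that reached the score, the background criterion left out 2. One lay near Ly6c2, with a ChIP score of 137.57 and a background score of 44.21, and the other in an intron of Sfi1, with 103.31 and 33.15. The Sfi1 region also had the most tags of any region, 491. Inside the rule, background scores ran from 0 to 7.76, and 77 of 257 (30.0%) were 0, against 685 of 2197 other peaks (31.2%). The sample behind the background score is not given in the sources used here.

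Tag counts, which the list gives per region, were only partly the same ordering. Regions of the strongest peaks had 38 to 390 tags (median 83), and those of other peaks 10 to 491 (median 29), so the ranges overlapped widely. Within the 257 peaks, score and tags had a Spearman rho of 0.68, across peaks that share a list and, in part, a region. If the 257 peaks with the most tags had been taken instead, 162 of them (63.0%) would have been the same peaks. Because tags are counted per region, that set also takes in weaker maxima of regions with many tags. It was taken without the background criterion. The region around a strongest peak had a median width of 707 bp, against 461 bp for others. Regions with more than 1 maximum held 49 of the strongest peaks (19.1%) and 10.9% of other peaks. In all the 257 maxima lay in 247 regions, 10 of which held 2 of them, and maxima of 1 region share their tags.

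**Figure D2:**
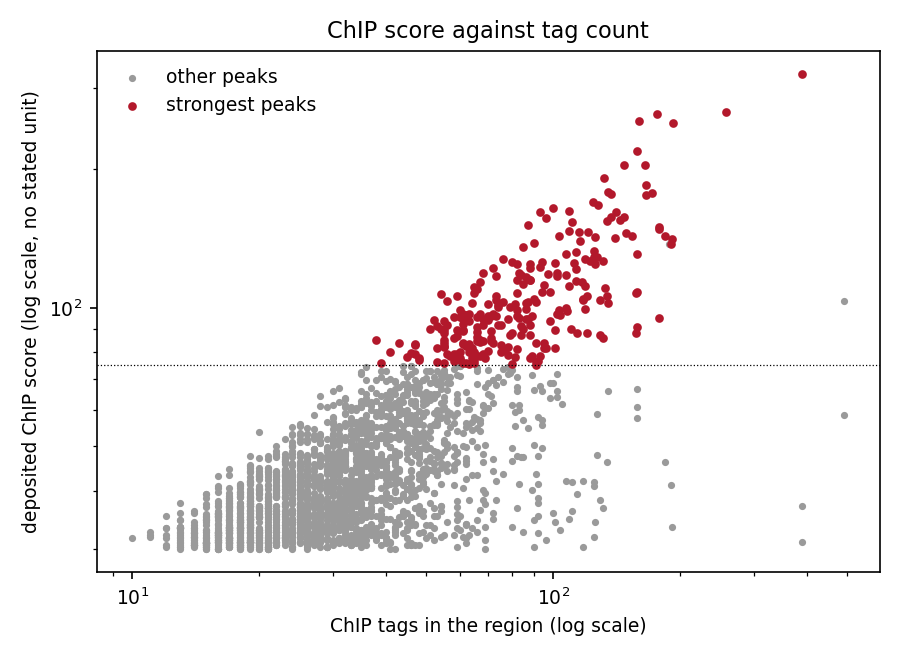
ChIP score against ChIP tags in the region, both on log scales, for the 257 strongest peaks (red) and 2197 other peaks (grey), with the dotted line at a score of 75. The strongest peaks span 38 to 390 tags, and peaks with well over 83 tags, their median, also lie below the line.

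Homeodomain cores were found at nearly all of the strongest peaks, as at nearly all other peaks. In 200 bp centred on the maximum, ATTA on either strand was present in 251 of 257 strongest peaks (97.7%, exact interval 95 to 99.1) and 93.8% of other peaks, with an odds ratio of 2.78 (1.23 to 7.79). By Fisher's exact test, two-sided, this did not pass after adjustment over 19 features (p = 0.010, adjusted p = 0.099). The same core was in 64.0% and 67.1% of 200 bp windows lying 1000 bp away from the 2 kinds of peak. The difference passed in windows of 100 bp (91.1% against 83.9%, Fisher's exact test, adjusted p = 0.035) and within strata of similar GC content (adjusted p = 0.043 over the features other than GC content), but with tags in place of scores the odds ratio was 0.998. TAATTA was in 94 strongest peaks (36.6%, 30.7 to 42.8) and 34.0% of others. Its odds ratio was 1.12, with an interval of 0.844 to 1.47 and an adjusted p of 0.72 by the exact test. It includes ATTA, and in windows 1000 bp away it was in 6.42% and 6.51%. Higher scores within the group did not come with more TAATTA: 4 of the first 20 peaks had it (20%), 27 of the next 80 (33.8%) and 63 of the last 157 (40.1%), bins that were chosen after the values were seen and not tested.

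Of the 6 strongest peaks with no core in 200 bp, 2 stood among the 30 highest scores. These were near Akap2, which encodes a protein kinase A anchoring protein (153.63), and Tor3a, a torsin gene (151.22). The others lay near Glrx2 (125.8), Neurog2 (91.0), Epb4.1l2 (89.39) and Tmem132c (88.06). These 6 are named because the count is small, and apart from Neurog2 and Tmem132c the rule for named genes did not select them. Their nearest cores lay 128.5 to 313.5 bp from the maximum. The Tmem132c maximum shared its region with another strongest peak, of 106.26, which had a core 5.5 bp from its own maximum. At other peaks a core was absent in 137 cases (6.24%).

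Taken as a group, the strongest peaks had cores closer to the maximum. The middle of the nearest core was a median 12.5 bp from the maximum (quartiles 5.5 and 24.5), against 17.5 bp (7.5 and 35.5) at other peaks. Within the group the distance did not fall steadily with score. Its median was 18.5 bp at the first 20 peaks, 7.5 bp at the next 80 and 13.5 bp at the last 157. Score and distance had a Spearman rho of -0.10 there. A core within 20 bp was found at 174 of 257 (67.7%, 61.6 to 73.4) and at 55.5% of other peaks (53.4 to 57.6), and within 50 bp at 92.2% and 84.4%. At least 3 cores in 200 bp were counted at 155 (60.3%) and at 51.0%, where a TAATTA counts as 2 cores. The median count was 3 in both groups, with quartiles of 2 and 4 in both. The cutoffs of 20 bp, 50 bp and 3 cores were chosen after the values were seen. How the maximum was placed is not given in the sources used here. It comes from the same list as the score, and regions of the strongest peaks had more tags (median 83 against 29). These values are therefore given without a test, and the part of tag number in them was not tested. With TAATTA as the core, the shares within 20 bp were 16.3% and 14.1%. The profile of cores rises at the maximum in both groups, and higher at the strongest peaks. In the 20 bp just before the maximum there were 62.3 cores per 100 strongest peaks and 44.7 per 100 other peaks, and in the 20 bp just after it 51.4 and 45.6.

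**Figure D3:**
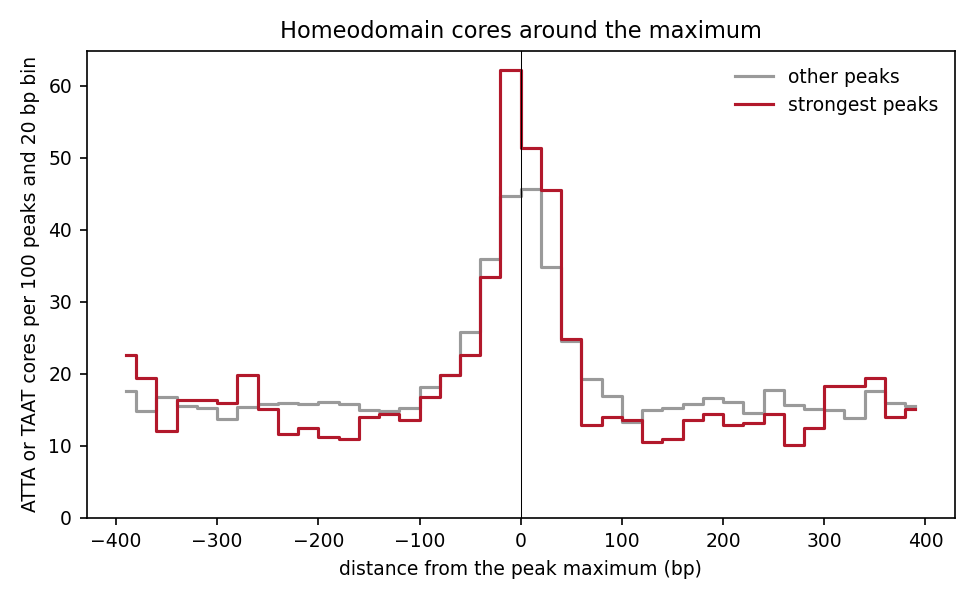
Number of ATTA or TAAT cores per 100 peaks in 20 bp bins, against distance from the peak maximum in bp, for the 257 strongest peaks (red) and 2197 other peaks (grey). The strongest peaks reach 62.3 cores per 100 peaks in the bin before the maximum, where other peaks have 44.7, and both lines fall within about 100 bp. Farther out the strongest peaks vary from 10.1 to 22.6 and other peaks from 13.3 to 17.8.

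Letters beside the nearest core were also read, oriented as TAAT, at the 237 strongest peaks with a core within 50 bp. The base after TAAT was T in 51.9% and G in 28.3%, against 48.9% and 25.5% at other peaks. The third base after TAAT was T in 5.91%, against 12%. These shares were looked at after the data were seen and carry no test.

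Pairs of cores passed the test in none of the 3 arrangements counted. ATTA followed by TAAT with 3 bases between was in 20 strongest peaks (7.78%) and 4.60% of others, an odds ratio of 1.75 (1.01 to 2.91) by Fisher's exact test (p = 0.032, adjusted p = 0.20). Windows 1000 bp away held it in 0.973% and 0.592%. With 10 bases between, the pair was in 1.17% and 3.14% (exact test, adjusted p = 0.38). TAAT repeated in the same direction with 5 bases between was in 7.78% and 5.83% (exact test, adjusted p = 0.64). The pair with 3 bases between is shown for the member of the 20 highest scores that held it and for the genes of the fixed lists, with both cores in capitals, on the plus strand of mm9.
Paqr9, chr9:95482743-95482753: ATTAgagTAAT
Mnx1, chr5:29811874-29811884: ATTAaaaTAAT
Spry2, chr14:106198712-106198722: ATTAactTAAT
The middle bases differed among the 3 sites. Their middles lay 45 bp from the maximum near Paqr9, 67 bp near Mnx1, a homeobox gene of motor neurons, and 15 bp near Spry2, which encodes a Sprouty inhibitor of FGF signalling.

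Sites of other factors did not separate the strongest peaks from the rest. The POU octamer ATGCAAAT was in 5.06% against 4.14%, the E-box CAGCTG in 16.0% against 13.7%, and the SOX site ATTGTT in 13.6% against 14.4%. The Onecut sites ATCGAT and ATTGAT, counted together, were in 10.5% against 11.3%. The GATA site AGATAA was in 12.1% against 9.79%, and the GC box GGGCGG in 8.95% against 7.87%. Adjusted p-values by Fisher's exact test were between 0.64 and 0.87 for these 6. Windows 1000 bp from the strongest peaks held the octamer in 1.17%, the E-box in 9.14%, the SOX site in 12.7%, the Onecut sites in 8.95%, the GATA site in 9.34% and the GC box in 5.64%. The relaxed STAT site TTCNNNGAA, of interest because LIF activates STAT3, was in 10 strongest peaks (3.89%) and 5.14% of others. The odds ratio was 0.747, with an interval of 0.344 to 1.45 (exact test, adjusted p = 0.72). Windows 1000 bp away from the strongest peaks held it in 5.84%. An odds ratio as high as 1.45 therefore lies within the interval.

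GC content was the only one of the 19 features that passed, which is 5.26% of them. A GC content of at least 50% was found in 125 of 257 strongest peaks (48.6%, 42.4 to 54.9) and 36.4% of other peaks. The odds ratio was 1.66, with an interval of 1.27 to 2.17 (exact test, p = 0.00017, adjusted p = 0.0033). Median GC was 49.5% against 48.0%, and the ranges overlapped almost fully, 36.0 to 64.5% against 30.0 to 76.0%. By the same exact test the call was not stable: it was lost at a score threshold of 60 (odds ratio 1.32, adjusted p = 0.053) or 100 (1.5, adjusted p = 0.30) and in windows of 100 bp (1.28, adjusted p = 0.32) or 500 bp (1.32, adjusted p = 0.32). With the peaks of most tags in place of those of highest score the direction turned (0.95, Fisher's exact test, adjusted p = 1).

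**Figure D4:**
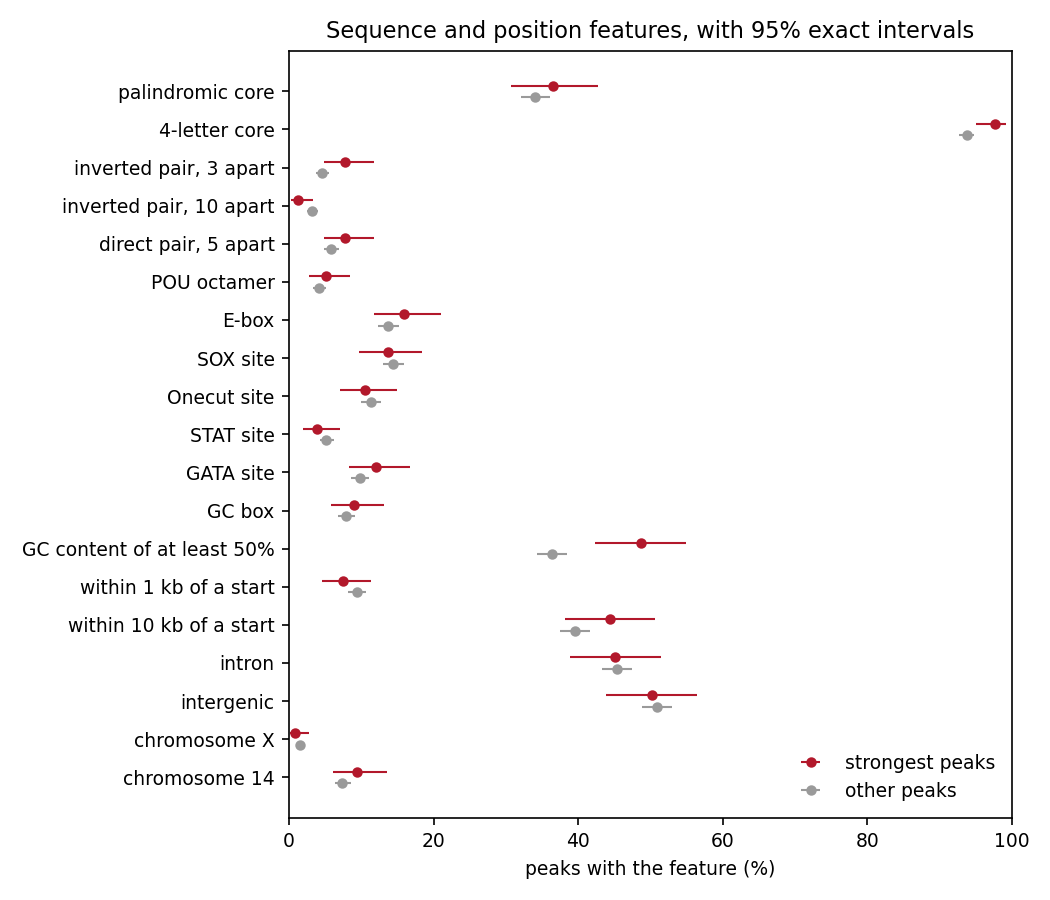
Share of peaks (%) with each of the 19 features, with exact 95% intervals, for the 257 strongest peaks (red) and 2197 other peaks (grey); motifs were searched in 200 bp around the maximum, the palindromic core being TAATTA, the 4-letter core ATTA, and inverted pairs ATTA before TAAT. Intervals of the groups overlap for most features, and the clearest gap is the share with a GC content of at least 50%, 48.6% against 36.4%.

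A scan of all 2080 six-letter words, each counted with its reverse complement, found 0 (0%) that passed by Fisher's exact test. At an unadjusted p under 0.05 there were 147 words, 7.07%. The lowest adjusted p was 0.067, for AACATT, present in 8 strongest peaks (3.11%) and 10.6% of others. CGTTAA was in 6.23% and 1.82% (exact test, adjusted p = 0.12). Among words with the homeodomain core, CATTAG was in 26.8% and 18.4% and ATTACC in 19.8% and 12.3% (exact test, adjusted p = 0.30 for both). Leaving off the background criterion, which adds 2 peaks, brought AACATT past the threshold of the exact test (adjusted p = 0.046), and a score threshold of 60 did so for CATTAG, higher at the strongest peaks (adjusted p = 0.035).

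The strongest peaks lay where other peaks lay relative to genes. Introns held 116 (45.1% against 45.3%), intergenic sequence 129 (50.2% against 50.9%), noncoding exons or UTRs 10 (3.89%) and coding exons 2 (0.778%). Within 10 kb of a transcription start there were 44.4% against 39.6% (odds ratio 1.22, 0.928 to 1.59, Fisher's exact test, adjusted p = 0.60), and within 1 kb 19 strongest peaks (7.39%) against 9.33% (adjusted p = 0.68). The median distance to the nearest start of any gene was 14.9 kb, against 15.2 kb. Among the 20 highest scores, the peak of Mcf2, which encodes a guanine nucleotide exchange factor, was the one nearest to a start, 0.069 kb upstream (167.55, 128 tags). Pax6, a neural homeobox gene chosen after its values were seen, had a peak 0.429 kb upstream of a start (117.5, 102 tags).

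Chromosomes were compared after the numbers per chromosome had been seen. Chromosome 5 held 31 strongest peaks among its 163 (19.0%, 13.3 to 25.9; odds ratio 2.15, Fisher's exact test, adjusted p = 0.015). Chromosome 7 held 2 among 102 (1.96%, odds ratio 0.165, exact test, adjusted p = 0.015) and chromosome 16 held 2 among 87 (2.30%, odds ratio 0.195, adjusted p = 0.045). These 3 of 20 chromosomes (15%) passed, and did so too with 1 peak kept per region (exact test, adjusted p = 0.022, 0.022 and 0.045). At a score threshold of 60 or of 100, 0 chromosomes passed. With tags as strength chromosome 7 did not pass (odds ratio 0.523, exact test, adjusted p = 0.34). The test counts each peak as independent, although neighbouring peaks are not. Chromosome 14, which held both of the highest scores, had 24 among 186 (12.9%, adjusted p over the 19 features = 0.64), and chromosome X had 2 among 34.

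**Figure D5:**
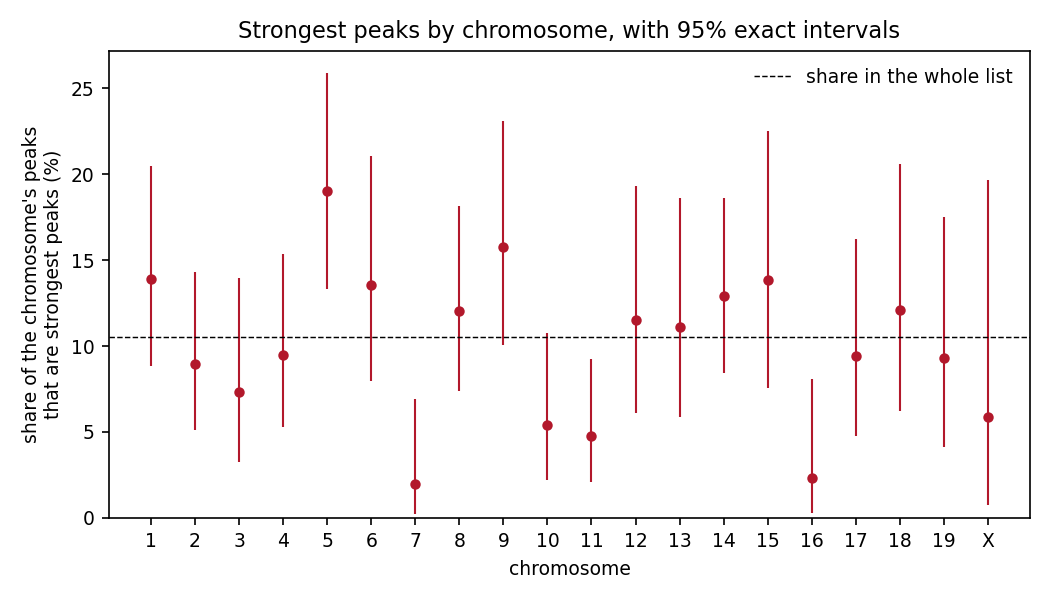
Share of each chromosome's peaks (%) that were strongest peaks, with exact 95% intervals, and the share in the whole list as a dashed line at 10.5%. Chromosome 5 lies above the line at 19.0%, and chromosomes 7 and 16 lie below it at 1.96% and 2.30%.

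Genes of the fixed lists were assigned a strongest peak when theirs was the nearest protein-coding start. This held for 19 of 305 list genes (6.23%), against 241 of 22238 protein-coding genes (1.08%). The lists were drawn up with earlier results of these data known, so this contrast is a description. For any peak of the list the numbers were 86 of 305 list genes and 1823 of 22238 protein-coding genes (8.20%). The higher share at list genes was thus not particular to the strongest peaks. With the nearest gene of any kind in place of protein-coding genes, 11 list genes had a strongest peak.

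Among LIM-homeodomain and motor neuron transcription factors, 4 of 28 genes had one. Lhx3, which encodes one component of the fusion itself, had a peak of score 162.46 with 109 tags and a background score of 1.81, intergenic, 8.07 kb from its start. The noncoding gene Gm13553 was nearer. A second peak near Lhx3 scored 62.9 and fell outside the rule. Mnx1, the motor neuron homeobox gene also known as Hb9, had a peak of score 111.61 (109 tags, background score 0) 6.75 kb upstream. Neurog2, a proneural bHLH gene, had 4 maxima of 1 region in its coding exon, of which 1, at 91.0, met the rule and the others scored 57.54 to 66.64. The region had 158 tags and the 4 maxima each had a background score of 0. Lhx5, a LIM-homeodomain gene of interneurons and forebrain, had 2 strongest peaks, of 83.51 (127.2 kb upstream) and 80.29 (15.7 kb from its start).

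In other neural lists 1 or 2 genes each had a strongest peak, to be read beside the 1.08% of all protein-coding genes. Chat, which encodes the enzyme that makes acetylcholine, had the only strongest peak of the 13 matched cholinergic genes, in an intron at 22.2 kb from its start (87.25, 84 tags, background score 0). Slc18a3 did not match the annotation. Of 27 spinal interneuron factors, Lhx5 and Pax3 (101.71, 224.4 kb from its start) had one. Of the 40 genes in the axon guidance and adhesion list, only Ncam1 did, a neural cell adhesion gene (145.87, 115 tags, 137.3 kb upstream). That list is not complete. Nfasc, an axonal adhesion gene (169.96), and Sema6a, a semaphorin gene (112.15), had strongest peaks but were not on it. In the ion channel and synapse list, Accn2 had the peak of 251.59 described above. Among 20 Notch pathway genes, the receptor gene Notch4 (122.05, 1.52 kb upstream) and the coactivator gene Maml1 (87.25) did.

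Signalling and pluripotency lists had 1 or 2 such genes each. Lifr, which encodes the LIF receptor, was the only one of 24 LIF, JAK and STAT genes with a strongest peak, intergenic and 13.8 kb upstream (143.19, 184 tags, background score 4.84). Its nearest core lay 0.5 bp from the maximum. Lats2, a kinase gene of Hippo signalling, was the only one of 19 (191.64, 132 tags), and Stra6, the cell-surface receptor for retinol-binding protein, the only one of 19 retinoic acid genes (91.8, in an intron of Ccdc33). Spry2 was the only one of 20 FGF and Sprouty genes (80.03), at 97.3 kb, and 10 weaker peaks of 30.78 to 57.54 also lay nearest to it. Of 22 pluripotency genes, Sox2 (84.04) and Prdm14 (86.18), both encoding transcription factors, had one.

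Lists with no tie to neurons were counted in the same way. Of 16 skeletal muscle genes, 0 had a strongest peak. Of 18 housekeeping genes 2 did: Gusb (92.07, inside Vkorc1l1, 24.0 kb from its start) and Tuba1b (75.74, 0.992 kb upstream). Their share, 11.1%, stood beside 14.3% for the motor neuron factors, and the nearest gene is an assignment by position that no measurement of expression accompanied.

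Some genes were nearest to several strongest peaks. Fam53a and Serp2 had 3 each, in 2 regions each, at 78.69 to 84.04 and 88.06 to 122.58. A further 12 genes had 2. Those in 2 separate regions were Fkbp4, which encodes an immunophilin, Lhx5, Myof and Slc34a2, and those in 1 region were 1700024G13Rik, Cdc73, Dmxl2, Hesx1, Lap3, Optn, Slc7a7 and Tmem132c. The Dmxl2 maxima, of 184.95 and 176.11, were both among the 20 highest and lay in 1 region of 166 tags. Hesx1, a homeobox gene of the anterior neural plate and pituitary, had maxima of 148.01 and 95.02 at 5.70 and 5.86 kb from its start.

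The remaining peaks of the 20 highest lay near genes of varied function. Slc35f3 (218.67, 158 tags, intron), a solute carrier gene, Paqr9 (204.48, 165 tags) and Plekhf2 (204.22, 147 tags) followed Accn2. Zmat4 (178.52), Pax8, a paired-box transcription factor gene (177.18, 172 tags), and Nfasc, which encodes the axonal adhesion protein neurofascin (169.96, 124 tags, background score 0), held intronic peaks. A230072I06Rik (176.92), 4933426M11Rik (164.34), Zdhhc18, a palmitoyltransferase gene (161.39), and Gtf2i, a general transcription factor gene (161.13), completed the 20. A few developmental genes were picked out after their values were seen. One was Gli2, a transcription factor gene of Hedgehog signalling (95.02, 22.6 kb upstream). Id3, an inhibitor of bHLH factors (126.33, 2.02 kb from its start), and Cdh1, which encodes E-cadherin (139.45, intron), were the others.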

How the data were processed

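Anti-Flag ChIP-seq libraries were aligned with BWA 0.5.8a to mm9, per the submitters' processing notes. How peaks were called, at which threshold, how scores were scaled and whether sets were pooled is not given in the sources used here. A single list of 2455 peaks was deposited. Its ChIP score and background score are the authors' values on an unstated scale. The ChIP tags are whole numbers, a count that the authors deposited per region. A single mitochondrial peak was left out. Depth per library is unknown.

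Sequence came from the NCBIM37 genome (mm9) and genes from GENCODE M1 (Ensembl 65). Distances run from the maximum to the nearest start, negative upstream. Members and other peaks were compared by two-sided Fisher's exact tests with Benjamini-Hochberg adjustment, at 0.05, within 19 features, 2080 six-letter words and 20 chromosomes, with Python 3.11.15 and SciPy 1.17.1. The comparison within GC strata used instead an exact conditional test over quartiles of GC content, with a Mantel-Haenszel odds ratio. Its adjustment ran over the features other than GC content. The word test was checked on simulated data. Intervals are 95% exact intervals and cover counting error only. The genome sequence carried no repeat marks, so the repeat feature of the plan was not used.

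The members and gene lists were chosen with earlier results of these data known. Genes named are those nearest to the 20 highest scores, list genes, the 3 peaks on each side of the threshold, genes nearest to several members, and others said to be chosen after their values were seen. Some genes that these rules select are left out of the text. The alternatives were other score thresholds, no background criterion, 1 peak per region, other windows, tags as strength, protein-coding starts and GC strata. Tags as strength took the 257 peaks with the most tags per region, weaker maxima of a region included, without the background criterion.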

Additional observations from a re-analysis of the deposited data

How the results depend on the processing

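No paired analysis was possible because the deposited list has no value per library or set. For the same reason no replicate was left out, and the spread between sets and the depth of each library limit every statement here. The number of features that passed, 1 as reported, was 0 at a score threshold of 60 (452 peaks), at 100 (117 peaks), with 500 bp windows and with tags as strength. In 100 bp windows and within GC strata the 1 that passed was ATTA and not GC content, which the strata left out as a feature. The number of six-letter words, 0 as reported, was 1 at a threshold of 60 and 1 without the background criterion. In a scan added after the data were seen, 0 of 16770 words of 8 letters found in at least 10 peaks passed. Chromosomes that passed, 3 as reported, numbered 0 at thresholds of 60 and 100, and 5 with tags. With tags, chromosomes 5 and 16 passed again, chromosome 7 did not (0.523), and chromosomes 9, 11 and 14 were added. The share with a core within 20 bp was 67.7% against 55.5% of other peaks, and for TAATTA as the core 16.3% against 14.1%. List genes with a strongest peak, 19 as reported, numbered 11 with genes of any kind, 27 at a threshold of 60 and 8 at 100. Odds ratios that changed direction did so mostly near 1. At a threshold of 100 these were TAATTA (0.880), the SOX site (1.09), the Onecut sites (1.18) and the GC box (0.723). In 100 bp windows they were the octamer (0.870), the Onecut sites (1.15) and the GC box (0.761). In 500 bp windows they were the GATA site (0.942) and the GC box (0.996), and within GC strata the GC box (0.968). With tags as strength they were TAATTA (0.869), ATTA (0.998), the SOX site (1.27), the Onecut sites (1.14), the GC box (0.799), GC content (0.95), distance within 10 kb (0.999) and intergenic position (1.02). The cause was not tested for any of these. Of the 156 comparisons of single features and chromosomes with their alternatives, 125 kept direction and side of the threshold. In most of these 125 the feature passed in neither setting. Another 11, all for GC content and chromosomes 5, 7 and 16, kept direction but no longer passed. A further 18 changed direction, and 2 passed only in the alternative.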
